A study of Homo sapiens with 11 samples.

Results

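Histone variant genes were examined in T-REx-293 cells after depletion of Tat-SF1, a protein known from transcription elongation and from the U2 part of the spliceosome. The set held 7 genes, H2AX, H2AZ1, H2AZ2, H3-3A, H3-3B, MACROH2A1 and H1-10, among 19536 gene symbols on the array. A probe set was taken as a member's if its single gene symbol was the member or its older name, which gave 88 of the 355799 probe sets with 1 symbol. The genes were singled out with the knockdown minus control differences of these arrays already known, so every value of that comparison below is a description, and where a call of a member is counted it supports nothing.

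T-REx-293 derives from the human embryonic kidney line HEK293 and switches on plasmid expression with tetracycline. All cells stably carried a GFP plasmid (green fluorescent protein) and received 2.5 µg/mL tetracycline for 72 h. They then expressed an empty vector (2 arrays), an shRNA against GFP (3 arrays), or shRNA A or shRNA B against Tat-SF1 (3 arrays each). The first pair of constructs formed the control group of 5 arrays and the other pair the knockdown group of 6, after 1 empty vector sample of the 12 in the design failed the submitters' quality control. Affymetrix Human Exon 1.0 ST arrays measured total RNA. The replicates are described as biological, without saying whether they came from separate cell lines or cultures, so the spread is that between these samples.

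In chromatin, replication-dependent histones are supplied in S phase. Variant histones are mostly made through the cell cycle from genes outside the large clusters, and many are placed by dedicated chaperones. H2AX carries a C-terminal serine that is phosphorylated around DNA double-strand breaks. H2A.Z, from H2AZ1 and H2AZ2, sits at the nucleosomes flanking active promoters. The variant H3.3, from H3-3A and H3-3B, which encode the same protein, marks transcribed chromatin and, in other places, telomeres and silent repeats. MACROH2A1 encodes an H2A with a large additional macrodomain found on silenced chromatin, and H1-10 encodes a linker histone of interphase chromatin.

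Promoter sequences are shown for H2AX and H1-10, the members with the lowest gene values relative to the controls that rest on probe sets next to the gene, and for the H2A.Z pair, whose differences had opposite signs. They are the 250 bases upstream of the RefSeq start on GRCh38.p14, and capitals mark every match on either strand. The motifs were the CCAAT box (CCAAT), the TATA box (TATAAA), the octamer (ATGCAAAT), a pair of E2F site forms (TTTCCCGC and, with its other core, TTTGGCGC) and the cAMP response element (TGACGTCA). This list was drawn up after the member promoters had been looked at, and no match of one motif overlapped another.

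H2AX, chr11:119095466-119095715, minus strand: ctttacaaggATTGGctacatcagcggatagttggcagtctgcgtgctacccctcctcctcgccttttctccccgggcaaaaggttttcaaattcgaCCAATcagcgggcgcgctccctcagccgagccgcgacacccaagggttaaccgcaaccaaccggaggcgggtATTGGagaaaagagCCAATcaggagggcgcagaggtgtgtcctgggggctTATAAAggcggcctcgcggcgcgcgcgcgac

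H2AZ1, chr4:99950276-99950525, minus strand: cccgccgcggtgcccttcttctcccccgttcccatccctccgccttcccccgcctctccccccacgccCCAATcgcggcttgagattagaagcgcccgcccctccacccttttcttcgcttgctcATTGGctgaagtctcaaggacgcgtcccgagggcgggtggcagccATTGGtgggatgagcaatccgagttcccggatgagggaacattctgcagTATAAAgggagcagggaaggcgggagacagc

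H2AZ2, chr7:44848088-44848337, minus strand: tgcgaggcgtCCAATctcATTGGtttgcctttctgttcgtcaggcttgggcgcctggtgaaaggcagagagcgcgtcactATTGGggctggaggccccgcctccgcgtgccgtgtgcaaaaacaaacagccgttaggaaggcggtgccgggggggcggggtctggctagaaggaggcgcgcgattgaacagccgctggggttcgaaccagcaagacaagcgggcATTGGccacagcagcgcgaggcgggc

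H1-10, chr3:129316287-129316536, minus strand: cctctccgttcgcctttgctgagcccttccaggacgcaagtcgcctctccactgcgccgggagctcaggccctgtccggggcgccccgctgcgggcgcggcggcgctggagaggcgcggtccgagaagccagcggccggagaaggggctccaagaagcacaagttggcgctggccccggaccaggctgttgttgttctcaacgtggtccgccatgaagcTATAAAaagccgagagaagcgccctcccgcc

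RefSeq lists 11 such starts for the 7 members, 4 of them for H3-3A and 2 for MACROH2A1. CCAAT lay in 8 of the 11, against 32.0% of all 35116 promoter windows of the same length, and TATAAA lay in 4, against 10.7%. H2AX, H2AZ2 and H3-3B had 4 CCAAT matches each and H2AZ1 had 3. H1-10 had none. The TATAAA match began 31 bases before the start in H2AX, H2AZ1 and H1-10 and 29 bases before it in H3-3B. ATGCAAAT was found once, in H3-3B, 76 bases before the start (1.63% of all windows). No member window held either E2F form or the cAMP response element, which lie in 1.39%, 0.55% and 1.65% of all windows. A match of letters is not evidence of a bound factor. Whether any of these motifs has a part in the differences given below was not tested.

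Values are log2 as deposited. A probe set is called bright here if its mean over the 11 arrays reached the median of the whole table (7.91) and dim otherwise, and the gene value is the median of a gene's bright probe sets on an array, given to genes with at least 4. The array medians lay between 7.902 and 7.905, so a gene near that level may change more than its log2 value shows. The level of a probe set depends on its own probes, so no gene's level is set against another's. Of the 88 probe sets, 74 were bright, 12 were dim and 2 lacked an estimate on at least 1 array. Gene values were obtained for 6 of the 7 members, and H3-3B, with 2 probe sets of its own, had none.

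HTATSF1, which encodes Tat-SF1, had gene values between 8.32 and 8.63 in the controls and between 8.11 and 8.29 in the knockdown arrays, without overlap. The 3000 brightest genes of an array averaged between 9.274 and 9.382 in the controls and between 9.182 and 9.304 in the knockdown arrays, and 4 knockdown arrays (shRNA A replicate 3 and all of shRNA B) but no control carried a suffix in the array name. Both differed between the groups compared below, and their part in the member values was not tested. For shRNA B the suffix cannot be told apart from the shRNA. Of 8 measured HEK293 markers, VIM had a control mean of 10.18 and KRT8 one of 9.73, whereas NEFM (7.97) and EYA1 (8.05) lay near the array median. All 13 measured markers of fibroblasts, endothelium, blood and hepatocytes had control means between 7.91 and 8.12.

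H2AX was lower under each Tat-SF1 shRNA. Its gene value was 9.01 and 9.12 with the empty vector, 9.05, 9.11 and 8.91 with the GFP shRNA, 8.63, 8.81 and 8.80 with shRNA A, and 8.56, 8.75 and 8.80 with shRNA B, in the order of the replicates. The highest knockdown array lay below the lowest control. The means were 9.04 ± 0.0815 (SD, n = 5) and 8.73 ± 0.106 (SD, n = 6), a log2 difference of -0.31. Expressed as signal over the array median, 288 ± 29.2 units (SD, n = 5) in the controls stood against 185 ± 30.5 units (SD, n = 6), or 64.3% (66.3% with shRNA A, 62.3% with shRNA B). The 2 knockdown arrays without the suffix both lay below every control and differed from the 5 controls by -0.32. No control has the suffix, so taking it as a block (-0.319) rests on the same 2 arrays and leaves out all of shRNA B. After quantile normalization the difference was -0.293.

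The H2AX probe sets differed in the size of their differences, and whether this exceeds noise was not tested. They ran from -0.14 to -0.49 in 5 of its 6 bright probe sets, and the other, near the array median, was at 0.03. The groups did not overlap in 2 of them, with knockdown lower, as in 1.65% of all bright probe sets. Probe set 3394186 was at 8.98, 9.18, 8.93, 9.18 and 9.01 in the controls (both empty vector arrays first) and at 8.38, 8.60 and 8.65 with shRNA A and 8.32, 8.59 and 8.86 with shRNA B. Probe set 3394185 went from 10.62 ± 0.0918 (SD, n = 5) to 10.32 ± 0.123 (SD, n = 6). The size of the gene's difference therefore moved with the choice of probe sets, to -0.178 with a floor 0.5 higher, -0.214 with the mean of the probe sets and -0.412 with the dim probe set 3394189 included, all in the same direction.

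H1-10 had the largest difference of the 6 on this scale, and it depended on which control it was set against. Its gene value was 8.89 and 8.80 with the empty vector but 8.39, 8.53 and 8.49 with the GFP shRNA, and then 8.54, 8.21 and 8.36 with shRNA A and 8.11, 8.19 and 8.08 with shRNA B. Both empty vector arrays lay above every other array, shRNA A overlapped the GFP shRNA, and all 3 shRNA B arrays lay below every GFP shRNA array. The difference from the pooled controls was -0.37. Against the empty vector it was -0.47 for shRNA A and -0.71 for shRNA B, and against the GFP shRNA it was -0.10 and -0.34.

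The difference between the control constructs was tested for H1-10, since it plays no part in how the genes were chosen. GFP shRNA minus empty vector was -0.37 with a standard error of 0.0867 and a 95% interval from -0.558 to -0.186, and 6 of the 14579 genes had a lower difference. By limma it did not pass after Benjamini-Hochberg adjustment over all genes (adjusted p = 0.896), and 0.00686% of genes, 1 in all, passed in that comparison. Its bright probe sets went the same way in 8 of 9, with a median of -0.214, against 37.6% of all bright probe sets with a lower mean in the GFP shRNA arrays, and in 4 of the 9 the constructs did not overlap, with the GFP shRNA lower, against 5.44% of all bright probe sets. On the scale above the array median, H1-10 had 220 ± 18.9 units (SD, n = 2) with the empty vector, 116 ± 17.7 (SD, n = 3) with the GFP shRNA, 93.1 ± 38.4 (SD, n = 3) with shRNA A and 40.7 ± 11.6 (SD, n = 3) with shRNA B.

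In H1-10, 8 of the 9 bright probe sets averaged lower after knockdown (median difference -0.237). None of them separated the groups. The widest difference was -0.57 in probe set 2694680, at 9.11 and 8.80 (empty vector), 8.39, 8.66 and 8.49 (GFP shRNA), 8.68, 8.18 and 8.36 (shRNA A), and 8.00, 7.9 and 7.62 (shRNA B). Its dim probe set, 2694683, was at -0.33. In the 2 knockdown arrays without the suffix the gene's difference from the controls was -0.24.

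**Figure D1:**
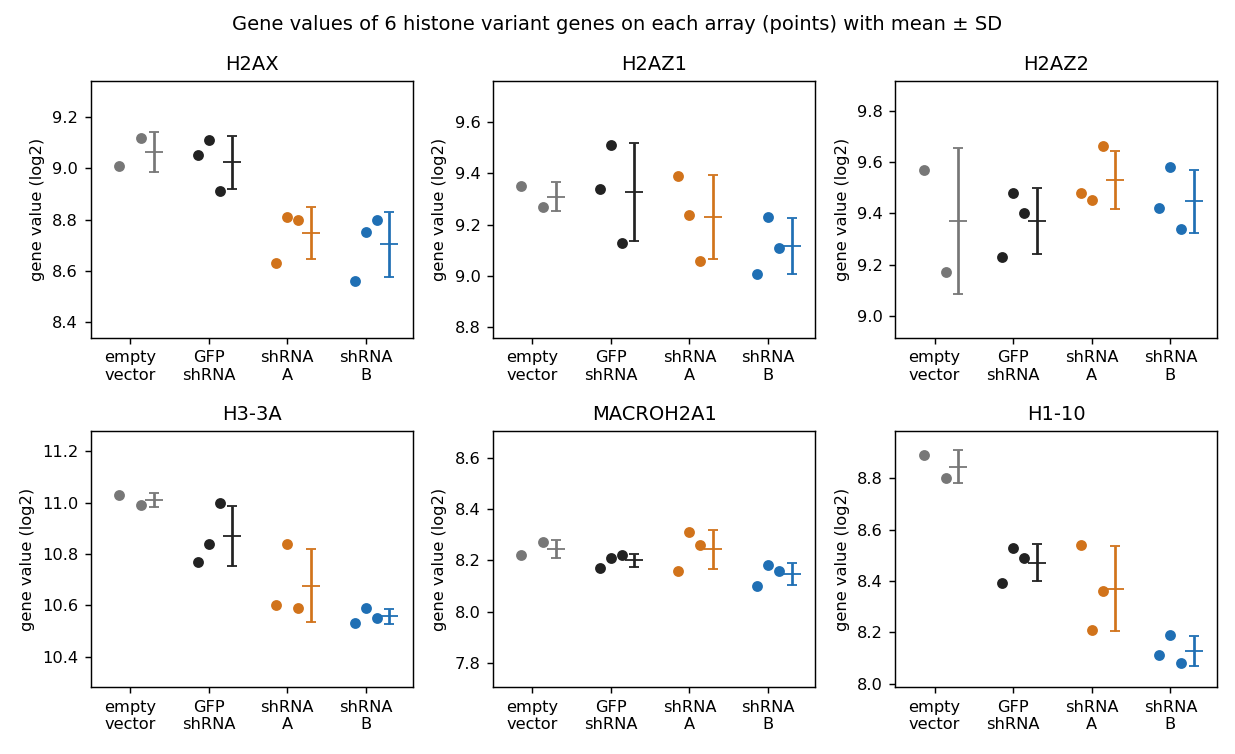
Gene values (log2) of the 6 measured histone variant genes by construct, 1 point per array, with the mean and SD of each construct beside the points and a span of 1 log2 unit on every axis. The groups separate in H2AX, and in H1-10 both empty vector arrays (8.89 and 8.80) stand above the GFP shRNA arrays.

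The H2A.Z genes had differences of opposite sign. H2AZ1 was lower in the mean and H2AZ2 higher, and in both the groups overlapped. H2AZ1 was at 9.35 and 9.27 with the empty vector, 9.34, 9.51 and 9.13 with the GFP shRNA, 9.39, 9.24 and 9.06 with shRNA A and 9.01, 9.23 and 9.11 with shRNA B. Only 3 of the 6 knockdown arrays, 1 of shRNA A and 2 of shRNA B, lay below every control. The difference was -0.15. In the 2 knockdown arrays without the suffix it was 0.00, or -0.004 by the block, which rests on the same 2 arrays.

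Single probe sets of H2AZ1 were more distinct than its gene value. Probe set 2779497 had the widest difference of all 74 bright member probe sets, -0.64, from 9.94 ± 0.309 (SD, n = 5) to 9.31 ± 0.23 (SD, n = 6). It was at 9.95, 10.07, 9.41, 10.09 and 10.18 in the controls and 9.72, 9.30 and 9.06 (shRNA A) and 9.38, 9.23 and 9.15 (shRNA B) in the knockdown arrays, where GFP shRNA replicate 1 and shRNA A replicate 1 made the groups overlap. The groups did not overlap in probe sets 2779496 (-0.15) and 2779491 (-0.05), the latter close to the array median. Probe set 2779488 went the other way, at 0.22. Of the 9 bright probe sets 7 had lower means, and with the higher floor the gene stood at -0.344.

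H2AZ2 was at 9.57 and 9.17 with the empty vector, 9.23, 9.48 and 9.40 with the GFP shRNA, 9.48, 9.45 and 9.66 with shRNA A, and 9.42, 9.58 and 9.34 with shRNA B. The difference was 0.12, and 98.6% of all genes had a lower one. The empty vector arrays were the highest and the lowest of the controls, and 4 of the 6 knockdown arrays lay between them. With the mean of the probe sets the difference was -0.003, and the probe sets of this gene had differences of both signs.

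Along the probe set numbers of H2AZ2 the differences changed sign in blocks. The 5 neighbours 3048871 to 3048875 were at 0.19, 0.23, 0.17, 0.21 and 0.10, the next was at -0.01, and 3048879, 3048880 and 3048881 were at -0.23, -0.28 and -0.42, before 3048883 at 0.32. The groups did not overlap in 1 of these, 3048880, at 10.54, 10.41, 10.40, 10.55 and 10.44 in the controls, 10.26, 10.11 and 10.11 with shRNA A and 10.31, 10.31 and 10.00 with shRNA B. These 11 probe sets lie between listed probe sets of TMED4 and PURB, and PURB is the protein-coding neighbour of H2AZ2 in RefSeq. The other 4 probe sets with its symbol lie between FAM174B and RGMA, which are on another chromosome than H2AZ2, and were at 0.05, -0.03, -0.36 and 0.03. The gene value of the first run alone was 0.14 higher in the knockdown arrays, and that of the second differed by -0.19, from 9.58 ± 0.108 (SD, n = 5) to 9.39 ± 0.125 (SD, n = 6).

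**Figure D2:**
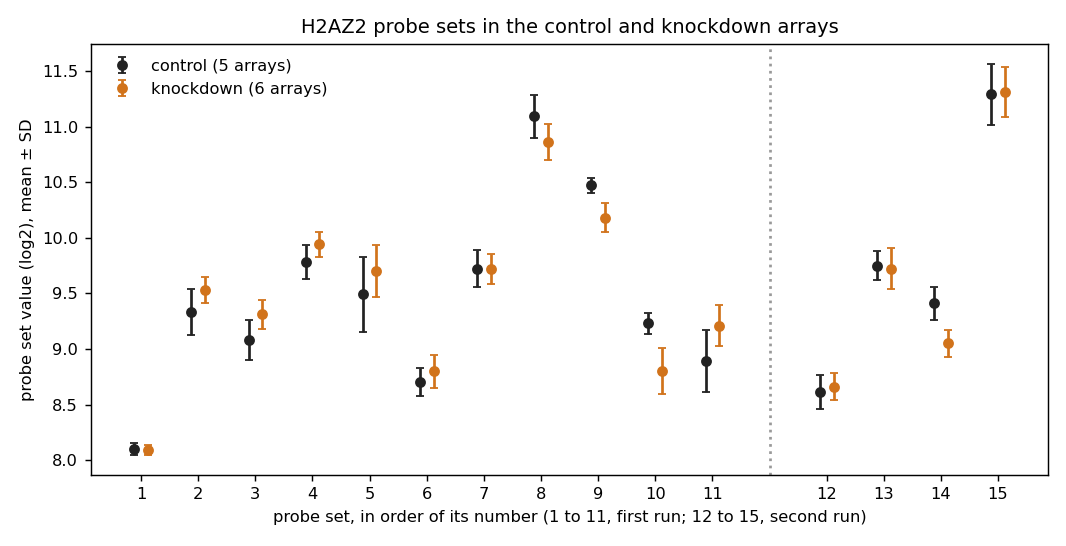
Mean and SD of each of the 15 H2AZ2 probe sets (log2) in the 5 control and 6 knockdown arrays, in the order of the probe set numbers, which is not a distance. Probe sets 2 to 6 and 11 (3048883, at 0.32) had higher means in the knockdown arrays, and probe sets 8 to 10 and 14 had lower ones.

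H3-3A was lower by its gene value, but that value came from probe sets outside the numbering next to the gene. It was at 11.03 and 10.99 with the empty vector, 10.77, 10.84 and 11.00 with the GFP shRNA, 10.60, 10.84 and 10.59 with shRNA A, and 10.53, 10.59 and 10.55 with shRNA B. All knockdown arrays but shRNA A replicate 2 lay below every control, and the difference was -0.31. Of its 9 bright probe sets, 3 lie between SETD7 and MAML3 and 4 between GRIA3 and XIAP, all on other chromosomes than H3-3A. This grouping by runs of probe set numbers was made after the values were seen. The median of the 3 between SETD7 and MAML3 gave the same values as the gene value on all 11 arrays.

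The 2 bright probe sets with the H3-3A symbol that lie between EPHX1 and MIXL1, with 5 and 1 protein-coding genes between these and H3-3A in RefSeq, were at 0.07 and 0.10. A further 11 in that run carry both H3-3A and H3-3B as symbols, and they ranged from -0.35 to 0.23. Of the 13 together 5 averaged lower and 8 higher after knockdown (median difference 0.03). A median over such unlike levels was unstable: over the 11 shared probe sets it was lower by -0.27 in the knockdown arrays, without overlap of the groups, and over all 13 it was higher by 0.28, from 9.33 ± 0.121 (SD, n = 5) to 9.62 ± 0.165 (SD, n = 6). With its dim probe sets included the gene value of H3-3A was at 0.065, and with the mean of the bright ones it was at -0.074. No direction is given for H3-3A on this basis.

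The H3-3B symbol alone stands on 2 bright probe sets, between DPY30 and NAP1L1, which are on other chromosomes than H3-3B. They were at -0.11 and 0.05. The run between GALK1 and UNC13D, the neighbourhood of H3-3B in RefSeq, holds 12 bright probe sets, all with both symbols. Of these 8 had lower and 4 higher means, with a median of -0.063. Their median value was 10.02 ± 0.0476 (SD, n = 5) without and 10.01 ± 0.0842 (SD, n = 6) with knockdown. In 1 of the 12 the groups did not overlap, probe set 3770958, which was at 10.51, 10.64, 10.62, 10.44 and 10.48 in the controls and 10.26, 10.34 and 10.13 (shRNA A) and 10.03, 10.17 and 10.35 (shRNA B) in the knockdown arrays.

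The lowest differences of the H3.3 probe sets came from 4 of the runs. These, -0.35 in 2383070 and 2383077, -0.34 in 2786727 and 3989621 and -0.32 in 3770958, had control means between 10.54 and 11.40, while 3770951, with a control mean of 11.20, was at 0.12. In 2383077 the values were 11.36, 11.67, 11.12, 11.50 and 11.38 in the controls, 11.05, 11.31 and 11.18 with shRNA A and 10.89, 11.12 and 10.76 with shRNA B. The genes have near-identical copies, and the deposited values do not show which transcript a probe set with such a symbol measured.

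**Figure D3:**
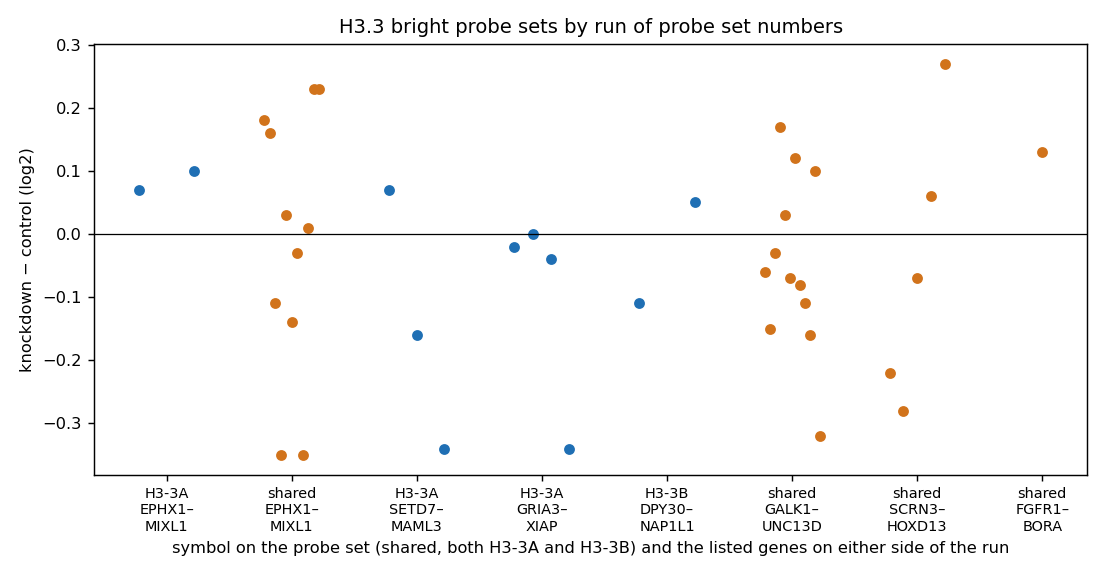
Knockdown minus control difference (log2) of each bright probe set with the symbol H3-3A or H3-3B (blue) or both (orange), grouped by run of probe set numbers with the listed genes on either side. The runs beside H3-3A (EPHX1 to MIXL1) and H3-3B (GALK1 to UNC13D) hold differences of both signs.

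MACROH2A1 was the best covered member, with 24 bright and 7 dim probe sets. Its gene value was 8.22 and 8.27 with the empty vector, 8.17, 8.21 and 8.22 with the GFP shRNA, 8.16, 8.31 and 8.26 with shRNA A, and 8.10, 8.18 and 8.16 with shRNA B. The groups overlapped, with a difference of -0.02, and 46.3% of all genes had a lower one. Many of its bright probe sets lay near the array median, and the median over all 24 differences was -0.008. The gene's difference was -0.096 with the higher floor, -0.108 with the array median subtracted and 0.016 with the suffix as a block. Probe set 2876515 stood apart at -0.40, from 9.77 ± 0.209 (SD, n = 5) to 9.36 ± 0.106 (SD, n = 6). GFP shRNA replicate 1, at 9.44, overlapped with shRNA B replicates 1 and 3, at 9.48 and 9.49, and the other 4 controls lay between 9.71 and 9.97. Of the 7 dim probe sets 5 had lower means, the lowest at -0.54.

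**Figure D4:**
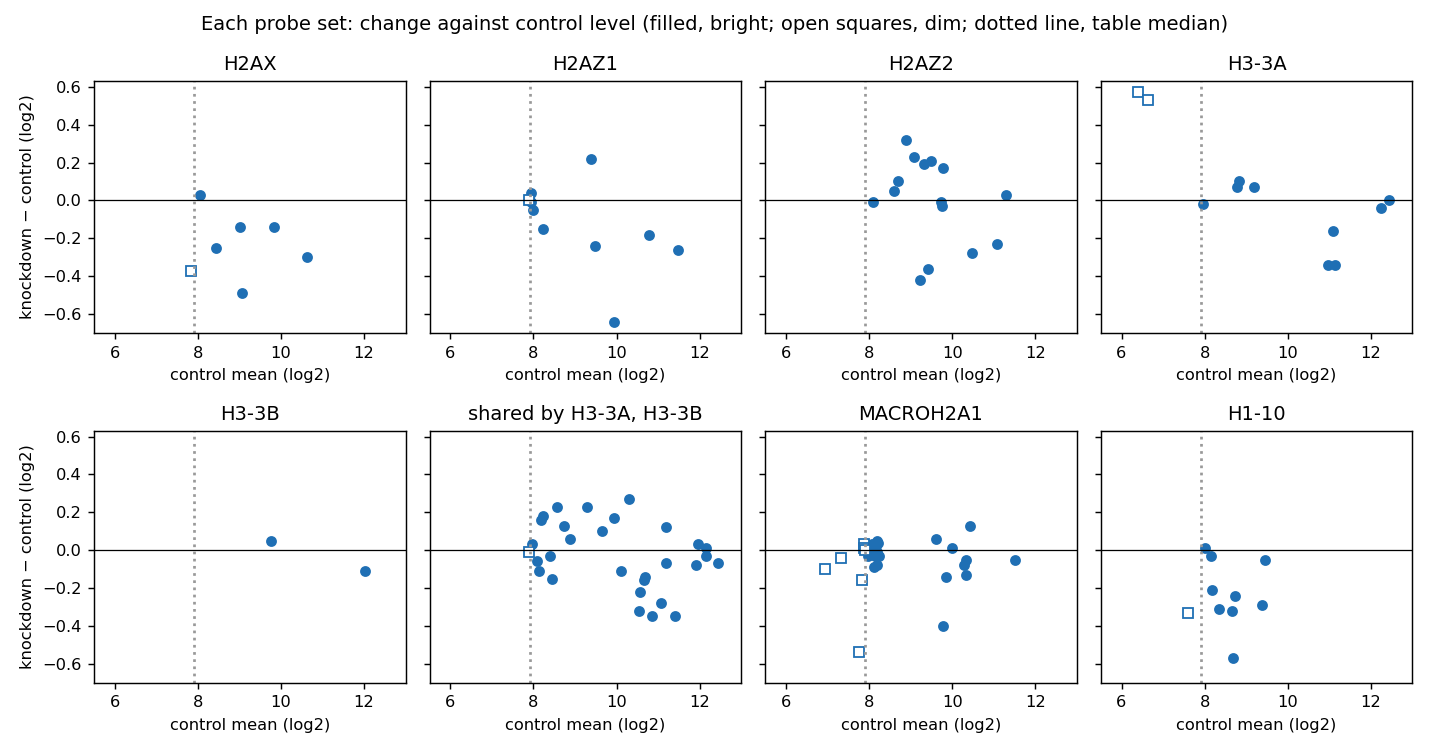
Knockdown minus control difference against control mean (both log2) of every member probe set with an estimate on all arrays and of those shared by H3-3A and H3-3B, bright (filled circles) or dim (open squares). H2AX and H1-10 lie mostly below 0, and the other genes spread to both sides.

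Across the 6 members with a gene value, 5 averaged lower after knockdown, against 67.1% of all 14579 genes. Their median difference was -0.227 and that of all genes -0.016. Without H3-3A, whose direction depends on the probe sets taken, 4 of 5 were lower and the median was -0.146. By limma with Benjamini-Hochberg adjustment over all genes 1 of the 6, H2AX, was called, against 0.219% of all genes (0.185% lower and 0.0343% higher), and the groups did not overlap, with lower knockdown arrays, in the same 1, against 2.02%. The H2AX call was lost in 17 of 20 alternatives, among them all 11 that leave out 1 array, and was kept with probe set means, with the array median subtracted and without a trend. With the higher floor H2AX did not pass (limma adjusted p = 0.109), whereas H1-10 (0.0309) and H3-3A (0.0321) did. Far more genes were called in that setting than in the main fit (254 against 32). The genes with a value there were not counted, so the shares above do not apply to it. Against the single shRNAs no member was called, where 0.00686% (shRNA A) and 0.0686% (shRNA B) of genes were. These shares are given for scale, since the genes were chosen on this comparison. Of the 74 bright probe sets 48 (64.9%) had lower means, which is near the 61.5% of all 221964 bright probe sets, and in 5 (6.76%) the groups did not overlap with knockdown lower, against 1.65%, and in 0 with knockdown higher, against 0.203%. The knockdown arrays were dimmer in the brightest genes, as given above, and after quantile normalization the median of the 6 differences was -0.208. With the suffix as a block, and so in the 2 knockdown arrays without it, the median was -0.105. H2AX was then at -0.319, H1-10 at -0.243, H3-3A at -0.207 and H2AZ1 at -0.004.

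The shRNAs were compared with each other, a difference that the choice of genes does not fix. All 6 gene values had a lower mean with shRNA B than with shRNA A, against 51.2% of all genes, and no member passed by limma (adjusted p = 0.998 for each). The count includes H3-3A, whose gene value and most bright probe sets lie outside the numbering next to the gene. So do 4 of the 15 H2AZ2 probe sets. The agreement of the members is therefore weaker than the count. For H1-10 the difference was -0.24, with a 95% interval from -0.484 to 0.001, for MACROH2A1 it was -0.09 (from -0.196 to 0.008) and for H2AX it was -0.04 (from -0.214 to 0.134). H2AZ1 was at -0.12 (from -0.336 to 0.101), H3-3A at -0.12 (from -0.331 to 0.095) and H2AZ2 at -0.09 (from -0.317 to 0.143). The intervals leave room for differences as large as those from the controls in all except H2AX. No gene of the 14579 was called in this comparison by limma (0%, with 638 at an unadjusted p under 0.05). By single bright probe sets, shRNA B was lower in 8 of 9 for H1-10 (median -0.149), 8 of 9 for H2AZ1 (median -0.043) and 7 of 9 for H3-3A (median -0.118), but there was no common direction in H2AX (3 of 6, median 0.01), MACROH2A1 (12 of 24, median 0) or H2AZ2 (8 of 15, median -0.005), against 51.8% of all bright probe sets. All shRNA B arrays and 1 shRNA A array carry the suffix. With it as a block only that shRNA A array stands against shRNA B, and H2AZ1 was then at 0.050.

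In the other members, as in H1-10, the difference between the control constructs did not pass by limma. GFP shRNA minus empty vector was -0.04 for H2AX (95% interval from -0.243 to 0.158, adjusted p = 0.978), 0.02 for H2AZ1 (from -0.237 to 0.27, adjusted p = 0.995) and -0.14 for H3-3A (from -0.376 to 0.092, adjusted p = 0.948). It was -0.04 for MACROH2A1 (from -0.157 to 0.076, adjusted p = 0.961) and 0.00 for H2AZ2 (from -0.269 to 0.266). For H2AX the 4 differences of an shRNA from a control construct, which share arrays, lay between -0.28 and -0.36.

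**Figure D5:**
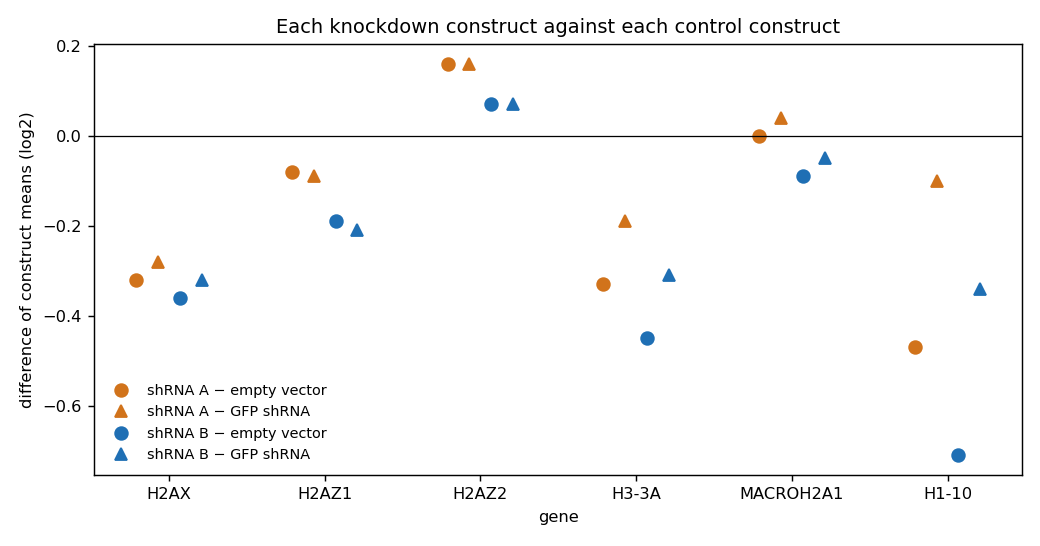
Differences of construct means (log2) for shRNA A (orange) and shRNA B (blue) against the empty vector (circles) and the GFP shRNA (triangles). H2AX lies between -0.28 and -0.36 in all 4 comparisons, and H1-10 between -0.10 and -0.71.

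Unequal change within the members was tested on the splicing index, which subtracts an array's gene value from each probe set value. The index was not tested for knockdown minus control. None of the 72 bright probe sets of the 6 members was called by limma, for shRNA B minus shRNA A (differences from -0.33 to 0.41, smallest adjusted p = 0.853) or for GFP shRNA minus empty vector (from -0.16 to 0.48, smallest adjusted p = 1). None of the 221964 was called in either comparison (0%), with 12252 and 9966 at an unadjusted p under 0.05.

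The genes whose values over the 11 arrays were most like those of a member were named by Pearson's r, as a description. For H2AX they were COX6B1 (r = 0.946), TALDO1 (r = 0.944) and CTDSP2 (r = 0.929), and for H3-3A they were PSRC1 (r = 0.949), RPL32 (r = 0.942) and SPCS1 (r = 0.94). For H1-10 they were CHCHD6 (r = 0.95), IGFLR1 (r = 0.922) and RPS10 (r = 0.916), for H2AZ1 SSBP3 (r = 0.898), MYH13 (r = 0.871) and RMI2 (r = 0.863), for H2AZ2 CDC42 (r = 0.853), HEATR1 (r = 0.852) and LATS1 (r = 0.839), and for MACROH2A1 NBPF9 (r = 0.882), CKS2 (r = 0.867) and KLHL21 (r = 0.863). No member was among the 3 most like another. Between members, r was 0.769 for H2AX with H3-3A and -0.382 for H2AX with H2AZ2. The arrays share brightness and group, which enter every such r. The named genes are those with the highest r of all genes over only 11 arrays, where high values also arise by chance. No r was tested.

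Genes of the same pathways were counted in the knockdown minus control comparison by limma, adjusted over all genes. Of all 14579 genes, 67.1% had lower means there and 0.219% passed. Of 8 measured replication-dependent histone genes, from 63 listed, all had lower means (median -0.089) and none passed. H1-2, a linker histone, was at -0.37 ± 0.106 (SE) and H1-4 at -0.17 ± 0.072 (SE). With the mean of the probe sets H1-2 was at -0.154. With the suffix as a block it was at -0.162 and H1-4 at -0.095. Of 4 measured other variant genes none passed, with MACROH2A2, the paralog of MACROH2A1, at -0.19 ± 0.0608 (SE), H1-8 at 0.07, and the centromeric CENPA at 0.01. With the higher floor MACROH2A2 was at -0.291 and passed (limma adjusted p = 0.0238), and without the filter on dim probe sets it was at -0.046.

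Among 21 genes of H3.3 and H3-H4 chaperones, RBBP4, a histone-binding subunit of CAF-1, fell (-0.29 ± 0.0549, SE; limma adjusted p = 0.0487), from 10.05 ± 0.0481 (SD, n = 5) to 9.76 ± 0.0441 (SD, n = 6), and 19 of the 21 had lower means (median -0.108). Among 20 genes of H2AX phosphorylation and its readers, PPP4C, the catalytic subunit of a phosphatase that acts on phosphorylated H2AX, fell (-0.33 ± 0.0592, SE; limma adjusted p = 0.0487), from 9.47 ± 0.0458 (SD, n = 5) to 9.14 ± 0.106 (SD, n = 6), and 18 had lower means (median -0.050). For scale, 67.1% of all genes had lower means and 0.185% were called lower. The lists were drawn up with results of these data known, so these counts are no independent evidence. The call of RBBP4 was lost without any 1 array except empty vector replicate 2 (limma adjusted p between 0.0396 and 0.122), and that of PPP4C without any of 9 of the 11, the exceptions being empty vector replicate 2 and shRNA B replicate 2 (limma adjusted p between 0.0322 and 0.104). With the mean of its probe sets RBBP4 was at -0.07.

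In the other lists none passed by limma. Of 17 genes of H2A.Z deposition and removal 13 had lower means (median -0.073), with the helicase RUVBL2 at -0.29 ± 0.0757 (SE) and YEATS4 at -0.17 ± 0.079 (SE). Of 9 measured partners of macroH2A and linker histones all had lower means (median -0.114), with PARP1 at -0.18 ± 0.0718 and LMNB1 at -0.17 ± 0.064 (SE). Of 13 genes of histone mRNA processing and transcription 7 had lower means (median -0.010), with SYMPK, a scaffold of the cleavage machinery, at -0.16 ± 0.055 and E2F1 at -0.13 ± 0.0574 (SE). The median of all genes was -0.016, and 67.1% of them had lower means.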

How the data were processed

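Exon arrays were run on 11 samples of T-REx-293 RNA. The authors' deposited table holds log2 values of 1399022 probe sets, for which software, normalization and build were not given in the sources used here. Between 13190 and 15431 probe sets per array had no estimate. Symbols came from GEO's annotation of the array, which is old, and were updated through RefSeq synonyms of GRCh38.p14 where this merged no listed symbols (2893 updated, 193 kept). Of the probe sets, 355799 had 1 symbol, 15195 had several, which were used only for H3-3A and H3-3B as described, and 1028028 had none listed.

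Gene values were medians of bright probe sets (221964 probe sets, 14579 genes). The limit for bright was taken over all probe sets with missing estimates left at their placeholder, and this and the symbol update were set so that both counts equal those of an earlier processing of these data. Differences were fitted with limma 3.58.1 (lmFit, eBayes with trend) in R 4.3.3, with 2 levels for knockdown against control, 3 for comparisons of the shRNAs and 4 for those of the controls, always over all 11 arrays, and adjusted by Benjamini-Hochberg over all genes or all bright probe sets, with a threshold of 0.05. The scripts were tested on simulated data with known changes. The number of arrays limits the precision. Signal above the array median is 2 to the power of the gene value minus the same of the array median. A run is a stretch of probe set numbers without a gap over 1000.

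The members and gene lists were chosen with earlier results of these data known. All members and, per list, up to 4 called genes, or else the 2 with the largest difference, are named, as are the 3 most correlated genes per member. Alternatives changed the filter, the summary, the normalization, the scale, the variance prior, blocks and arrays. With the suffix as a block, knockdown minus control rests on the 2 knockdown arrays without it. In that setting shRNA B minus shRNA A rests, for shRNA A, on replicate 3 alone. The replicate numbers were not taken as pairs in the main fits. Of 15 same-numbered pairs, 5 correlated over 0.1 in their deviations from the construct means (from -0.148 to 0.269). Pairs with unlike numbers were not compared, and the deviations of the 2 empty vector arrays mirror each other. These values therefore cannot decide whether the samples were paired.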

Additional observations from a re-analysis of the deposited data

Results flagged for a closer look

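In the gene value of H3-3A, shRNA A replicate 2 stood apart from the other knockdown arrays. It was at 10.84 and the others lay between 10.53 and 10.60, so that the gap took 0.787 of the range of the 6 arrays. Of 12 such groups of values (6 members in the controls and the knockdown arrays), this was the one with a gap beyond Dixon's limit. Chance takes about 1 in 20 such groups past that limit.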

How the results depend on the processing

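The median of the member differences (-0.227) kept its sign in every alternative run and lay between -0.245 and -0.196 without any 1 array. It was closest to 0 without the filter on dim probe sets (-0.080), with the suffix as a block (-0.105) and by probe set means (-0.107). Of single members, 3 changed sign in 1 alternative each: H3-3A (0.065 without the filter, which adds its 2 dim probe sets), MACROH2A1 (0.016 with the suffix as a block) and H2AZ2 (-0.003 by probe set means).

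Genes called in the knockdown comparison numbered 32, and 19 without the filter, 254 (higher floor), 137 (probe set means), 89 without a trend, 10 with the replicate block, 0 with the suffix as a block (1282 at an unadjusted p under 0.05 by limma), 0 without both GFP shRNA replicate 1 and shRNA B replicate 1, the extremes of principal component 1 (1708, chosen after seeing the data), and 2 to 47 without 1 array. For shRNA A against the controls 1 was called, and 9 (no filter), 47 (higher floor), 14 (mean), 0 after quantile normalization (1613 unadjusted by limma), 3 (array median subtracted), 10 (no trend), 0 with the suffix (1230), and 0 to 2 without 1 array. For shRNA B it was 10, and 1 (no filter), 88 (higher floor), 19 (array median subtracted, 5 of them higher against 4 of the 10), 0 with the suffix (798 unadjusted by limma), 4 with the replicate block, 0 without the 2 end arrays (1535), and 0 to 9 without 1 array. Between the controls 1 gene was called, and 0 by limma without the filter, with the higher floor, with the array median subtracted, without a trend, with the suffix, with the replicate block or without the 2 end arrays (318 to 903 unadjusted), and 0 to 2 without 1 array. Between the shRNAs it was 0 to 1 without 1 array, and by the splicing index 3 probe sets were called with the suffix as a block, and 0 to 1 between the controls without 1 array. The cause was not tested. With the replicate block H2AX, PPP4C and RBBP4 were no longer called (limma adjusted p = 0.0694 for each of the last pair). The splicing index was not run without the filter or with the array median subtracted.

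Small differences that changed sign were, for GFP shRNA minus empty vector, H2AX (0.024 with the higher floor, -0.093 to 0.012 without 1 array), H2AZ1 (-0.036 without the filter, -0.111 with the higher floor, -0.026 with the mean, -0.028 after quantile normalization, -0.074 to 0.112 without 1 array), H2AZ2 (0.027 with the mean, 0.006 with the array median subtracted, 0.069 without the 2 end arrays, -0.2 to 0.197 without 1 array), H3-3A (0.006 without the filter) and MACROH2A1 (0.005 without the filter, 0.026 with the higher floor, 0.012 with the mean). For shRNA B minus shRNA A they were H2AX (0.007 without the filter, 0.018 with the mean, 0.032 without the 2 end arrays, -0.099 to 0.032 without 1 array) and H2AZ1 (0.050 with the suffix). H1-8 was at -0.005 with the suffix. None of these passed in either setting by limma.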
